A study of Mus musculus with 6 samples.

Results

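The thioredoxin system, its inhibitor gene Txnip, the glutaredoxins and the quinone reductase gene Nqo1 were followed in erastin2-treated primary mouse kidney cells. The 9 genes were taken by symbol from the deposited expression table of 24421 rows: Txn1, Txn2, Txnrd1, Txnrd2, Txnip, Srxn1, Glrx, Glrx2 and Nqo1. All 9 were found, and all 9 passed the filter on low values. The cells were primary proximal tubular epithelial cells, the lining of the initial part of the nephron's tubule. All 6 libraries came from cells given 20 µM erastin2 for 24 h, a drug that blocks cystine import through system xc- and so limits glutathione. The genotype was labelled Atg5F/F (floxed) in 3 libraries and Atg5KO in 3, and the labels give the same batch date for all. The labels name neither the Cre that made the knockout nor the animal or culture of a replicate. The p-values therefore speak only of the spread between these samples, part of which may be technical. There was no untreated group, so a difference between genotypes that exists without erastin2 cannot be told apart from one that the drug brings out.

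Thioredoxins are small proteins that reduce disulphides in other proteins through a pair of cysteines, and thioredoxin reductases recharge them with electrons from NADPH. TXN1 and TXNRD1 work in the cytosol and nucleus, TXN2 and TXNRD2 in mitochondria. TXNIP binds reduced thioredoxin and blocks it, and it also limits glucose uptake. Glutaredoxins do related work with glutathione as the electron source, sulfiredoxin (Srxn1) repairs overoxidised peroxiredoxins, and NQO1 reduces quinones. Several of these genes, above all Srxn1, Txnrd1 and Nqo1, are known targets of the transcription factor NRF2.

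The members' chemistry shows in their coding sequence. The stretches below are from the GENCODE vM21 transcripts (GRCm38), 5′ to 3′ on the coding strand. They show how the members with the same task differ between the cytosolic and the mitochondrial protein. Capitals mark the codons of the redox-active residues, a pair of cysteine codons in thioredoxins and glutaredoxins. In the reductases they mark a cysteine codon and the TGA codon beside it, which is read as selenocysteine.
Txn1: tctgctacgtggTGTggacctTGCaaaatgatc
Txn2: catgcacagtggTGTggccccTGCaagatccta
Glrx: aagcccaccTGCccctacTGCagaaagacc
Glrx2: aaaacatccTGCtcttacTGTtccatggcc
Txnrd1: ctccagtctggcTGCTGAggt
Txnrd2: actgtgactggtTGCTGAggc
The Txn1 stretch lies in exon 2 at chr4:57951812-57951844 on the minus strand, and that of Txn2 spans exons 2 and 3 at chr15:77924642-77927699, also on the minus strand. The Glrx stretch lies in exon 1 at chr13:75840026-75840055 and that of Glrx2 in exon 3 at chr1:143745083-143745112, both on the plus strand. The reductase stretches end their coding sequences, at chr10:82896022-82896042 for Txnrd1 and at chr16:18477757-18477777 for Txnrd2, both on the plus strand.

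The promoter sequences of RefSeq (GRCm38.p6, 250 bases before to 50 after each annotated start) were searched because 2 known control elements bear on these genes. All 9 genes matched, with 15 windows. The antioxidant response element bound by NRF2 was searched as TGACNNNGC on both strands, and 12.4% of 32851 windows held it. It was found in 1 of the 3 Txnrd1 windows, 92 bases before the start, and in the Srxn1 window, 28 bases after the start. The carbohydrate response element, a pair of E-box-like sites, was searched as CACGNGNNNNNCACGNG on both strands, and 0.0487% of the windows held it. Among the 9 genes it was found in Txnip alone, 85 bases before the start. The N in each site admits the CACGAG of Txnip, so the match and its rarity rest on the letters chosen. Other spellings of the element were not searched. The matches before a start are shown in capitals below, for Txnip at chr3:96557852-96557908 and for Txnrd1 at chr10:82859094-82859142, both on the plus strand.
Txnip: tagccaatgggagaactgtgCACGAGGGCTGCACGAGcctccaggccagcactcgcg
Txnrd1: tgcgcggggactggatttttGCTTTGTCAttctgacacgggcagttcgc
A match describes letters only, and the other windows lack these letters within their 300 bases, which says nothing of control from farther away.

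Atg5, the targeted gene, showed no fall under the label Atg5KO, and its values there were higher. Its values were 8.76, 8.95 and 7.94 FPKM (fragments per kilobase of gene, scaled to the library total) in the libraries labelled Atg5F/F and 13.3, 11.5 and 12.7 FPKM in those labelled Atg5KO. A gene-level value does not reveal a lost exon, so each direction below rests on the labels, and the groups are called F/F-labelled and KO-labelled libraries. Implied read totals were 15528454 to 30004933 a library. Among proximal tubule markers, the sum of 18 ran from 275 to 299 FPKM in F/F-labelled and from 185 to 197 FPKM in KO-labelled libraries. Of the 7 that could be tested, 5 were lower and 1 higher. Slc22a8 was listed at 0 throughout, and the transporter genes Slc34a1, Slc5a2 and Slc22a6 had means of at most 0.13 FPKM. The fibroblast and pericyte list summed to 37.7 to 44.3 FPKM in F/F-labelled and 179 to 227 FPKM in KO-labelled libraries. That sum was carried by Acta2 and Postn, while the other 7 markers, collagens included, had means of at most 0.18 FPKM. The list of 10 markers of the loop, distal tubule and collecting duct summed to 22.2 to 25.5 FPKM in F/F-labelled and 42.9 to 58.2 FPKM in KO-labelled libraries. Nearly all of it came from Krt7, an epithelial keratin, which rose from 23.4 ± 1.80 to 50.3 ± 7.58 FPKM (log2 fold change 1.07, limma adjusted p = 8.2e-05), while Aqp2 and Calb1 were listed at 0 in all libraries. The 6 leukocyte markers summed to 11.0 to 13.3 and 10.3 to 12.6 FPKM. Csf1r (means 7.05 and 7.07 FPKM) and Cd68 (5.01 and 4.19 FPKM) made up most of that sum and were not called, while Adgre1 and Itgam were listed at 0 in all libraries. The 5 podocyte markers summed to 27.2 to 31.3 and 27.6 to 31.1 FPKM, mostly from Synpo, which was not called. Podxl rose (log2 fold change 0.58) and Wt1 fell (-0.42). The 6 endothelium markers summed to 10.3 to 11.9 and 7.40 to 9.02 FPKM. Most of it came from Kdr, which fell from 9.06 to 5.53 FPKM (-0.63, limma adjusted p = 0.0013). The deviation of log2 values from the mean over all libraries followed gene length differently in the groups. Its Spearman correlation with length across genes was -0.23 to -0.16 in F/F-labelled libraries and 0.11, 0.04 and 0.34 in KO-labelled replicates 1, 2 and 3. Deviations from a shared mean balance out over the libraries, so some libraries must differ in sign from others. That balance does not require the signs to split by group, as they did here. With the length trend of each library removed, the same 2 genes of the 9 were higher and the same 5 lower. The part of the marker differences in the results below was not tested. In bulk samples, fewer cells of a type and less RNA per cell cannot be told apart.

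Of the 9 genes, 5 were lower and 2 higher in KO-labelled libraries (limma on log2(FPKM + 1), Benjamini-Hochberg adjusted p under 0.05 over 11559 genes). Txnip rose most, and Nqo1 rose as well. Srxn1 fell most, followed by Glrx, Txnrd2, Txn1 and Txn2. Txnrd1 and Glrx2 were not called. The background was high: 39.2% of all tested genes were called in either direction, with 21.3% higher and 17.9% lower. Groups without any overlap were seen for 7 of the 9 genes, and for 51.9% of all tested genes. The median log2 fold change of the 9 was -0.23, and that of all tested genes was 0.02. Because 1 FPKM was added before taking logs, fold changes of low genes are understated. For single genes, an exact two-sided permutation test of 3 against 3 libraries gave p = 0.1 for each of the 7 called genes, the smallest it can give, and p = 0.2 for Txnrd1 and Glrx2.

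**Figure D1:**
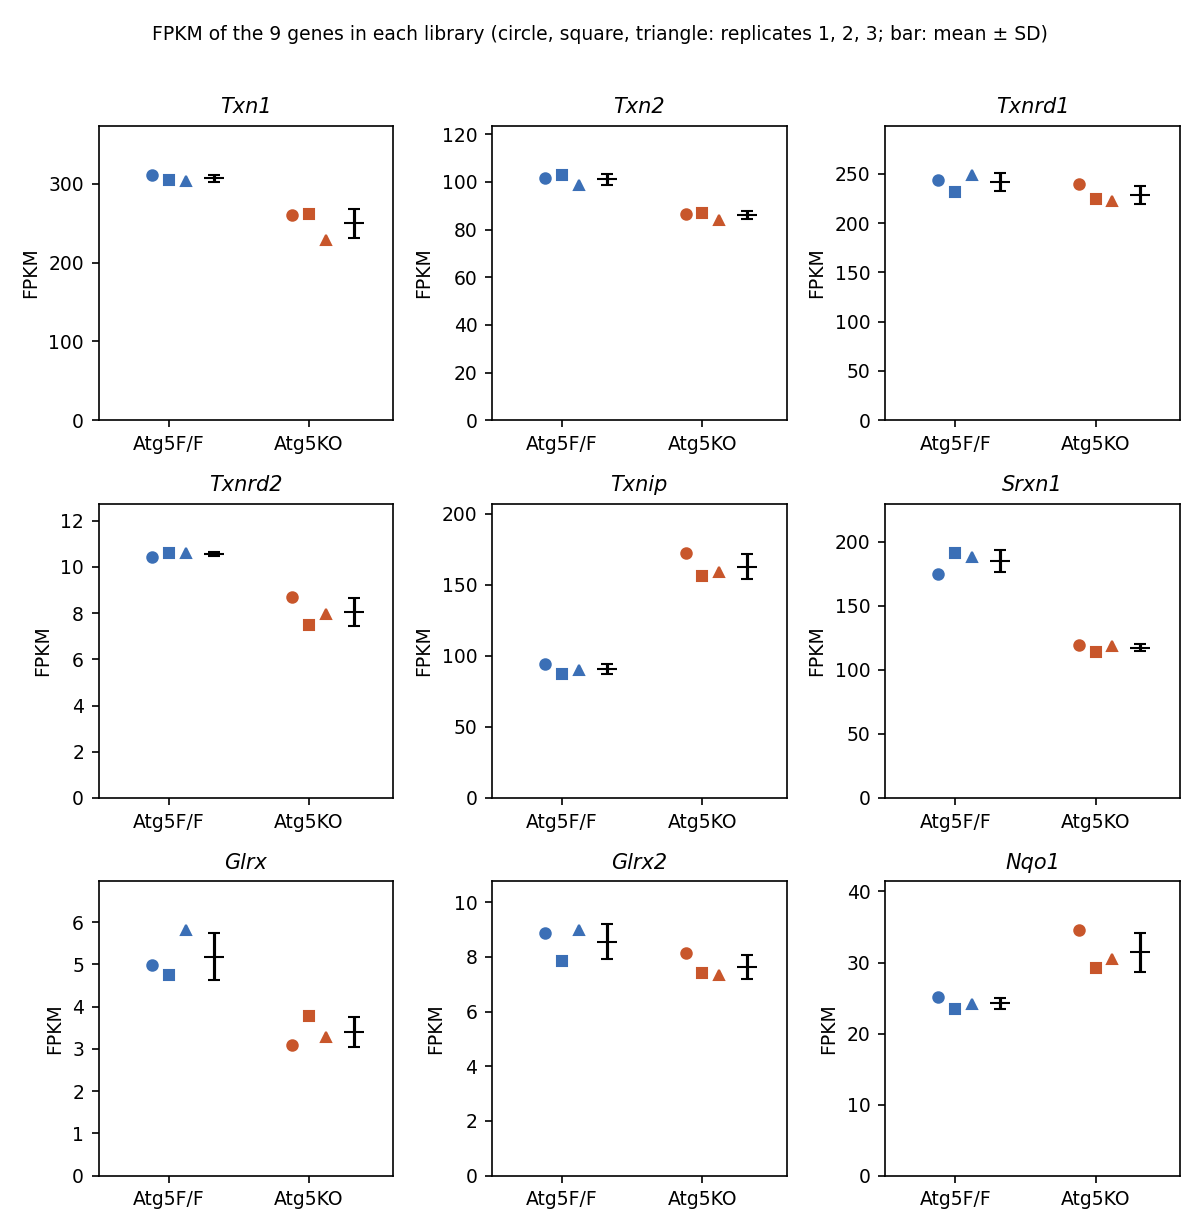
Each panel plots the FPKM of a gene (y axis, linear from 0) in the 3 F/F-labelled and 3 KO-labelled libraries, with markers for replicates 1 to 3 and a bar for the mean ± SD. The groups are apart for 7 genes, with Txnip and Nqo1 above and Txn1, Txn2, Txnrd2, Srxn1 and Glrx below, and they overlap for Txnrd1 and Glrx2.

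Txn1 encodes the cytosolic thioredoxin and was the most abundant of the 9 genes (ENSMUSG00000028367.5, chromosome 4, 57943373 to 57956411 in GRCm38). Its FPKM values were 311, 305 and 304 in the F/F-labelled libraries (replicates 1 to 3 here and throughout) and 260.0, 261 and 229 in the KO-labelled ones. All KO-labelled values lay below all F/F-labelled ones, and KO-labelled replicate 3 was the lowest. The means were 307 ± 3.93 and 249.9 ± 18.4 FPKM (SD, n = 3), and limma put the log2 fold change at -0.30 (SE 0.057, adjusted p = 0.0038). Without KO-labelled replicate 3, the library with the highest correlation to gene length, the log2 fold change was -0.23, and with the length trends removed it was -0.24 (limma adjusted p = 0.0019). Txn1 has an annotated pseudogene, and how the authors' counting treated reads shared with such copies is not given in the sources used here.

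Txn2, the mitochondrial thioredoxin gene (chromosome 15, 77915047 to 77929006), stood at 102, 103 and 98.5 FPKM in F/F-labelled and 86.7, 87.1 and 84.0 FPKM in KO-labelled libraries. The groups did not overlap and each was tight. The log2 difference by limma was -0.23 (SE 0.036, limma adjusted p = 0.0014). The mitochondrial form made up 24.5% to 25.2% of the summed FPKM of both thioredoxins in F/F-labelled libraries and 25.0% to 26.9% in KO-labelled ones. The ratio of Txn1 to Txn2 was 3.06, 2.97 and 3.08 against 3.00, 3.00 and 2.72. These ratios overlapped between groups (exact permutation p = 0.3, also 0.3 adjusted over 5 pairs), with a log2 difference of -0.06.

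Txnrd1 encodes the cytosolic reductase that recharges TXN1 (ENSMUSG00000020250.10, chromosome 10, 82833951 to 82897712). It rested on the most reads of the 9 genes, 14421 to 29409 a library. Its values were 244, 231 and 249 FPKM in F/F-labelled and 239, 224 and 222 FPKM in KO-labelled libraries, and the groups overlapped. The log2 fold change was -0.08, with a 95% interval from -0.19 to 0.03 (limma adjusted p = 0.23). With quantile normalization the estimate was 0.015, on the other side of 0 and likewise not called. The authors' deposited table gives a log2 fold change of -0.11 and an FDR of 0.043 for Txnrd1.

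Txnrd2, the mitochondrial reductase gene (chromosome 16, 18426384 to 18479073), was far less abundant. It stood at 10.4, 10.6 and 10.6 FPKM in F/F-labelled and 8.70, 7.48 and 7.96 FPKM in KO-labelled libraries, with no overlap. The means of 10.6 ± 0.095 and 8.05 ± 0.62 FPKM differed by -0.35 on the log2 scale (SE 0.058, limma adjusted p = 0.0017). The strand setting of the counting is not given in the sources used here, so the Txnrd2 values are uncertain by any reads of the opposite strand, and the part of such reads in the difference was not tested. The ratio of Txnrd1 to Txnrd2 was 23.3, 21.8 and 23.5 in the F/F-labelled and 27.5, 30.0 and 27.9 in the KO-labelled libraries. It was higher in all KO-labelled libraries, by 0.32 on the log2 scale (exact permutation p = 0.1, adjusted p = 0.125 over 5 pairs).

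The cytosolic reductase was also set against its own substrate. Txnrd1 over Txn1 was 0.78, 0.76 and 0.82 in the F/F-labelled and 0.92, 0.86 and 0.97 in the KO-labelled libraries, a log2 difference of 0.22 (exact permutation p = 0.1, adjusted p = 0.125 over 5 pairs). In F/F-labelled libraries every Txn1 value exceeded every Txnrd1 value, whereas in KO-labelled libraries the values of both genes overlapped. A design of 3 against 3 cannot reach an adjusted p under 0.05 for any of the 5 ratios.

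Txnip (ENSMUSG00000038393.14, chromosome 3, 96557957 to 96561883) showed the largest change of the 9. Its values were 94.6, 87.5 and 90.0 FPKM in F/F-labelled and 173, 156 and 159 FPKM in KO-labelled libraries. The lowest KO-labelled value was above the highest F/F-labelled one by a wide margin, and replicate 1 was the highest of each group. The means were 90.7 ± 3.59 and 163 ± 8.76 FPKM (SD, n = 3), 1.79 times as high. The log2 difference by limma was 0.83 (SE 0.050, 95% interval 0.72 to 0.95, limma adjusted p = 7.4e-06), and 2.47% of the tested genes had a larger absolute change. An antisense gene, Gm15441, shares 606 exonic bases with Txnip, but stood at 0.10 to 0.36 FPKM.

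The gene of the inhibitor was thus higher and that of its target lower. Txnip over Txn1 was 0.30, 0.29 and 0.30 in F/F-labelled libraries and 0.66, 0.60 and 0.70 in KO-labelled ones, a log2 difference of 1.14 (exact permutation p = 0.1, adjusted p = 0.125 over 5 pairs). By level per length, the order in F/F-labelled libraries was Txn1, Txnrd1, Srxn1, Txn2, Txnip, Nqo1, Txnrd2, Glrx2 and Glrx, with no overlap between neighbours. In KO-labelled libraries Txnip stood above Srxn1 and Txn2, in the place after Txnrd1. There the values of Txn1 and Txnrd1 overlapped, and so did those of Txnrd2 and Glrx2.

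**Figure D2:**
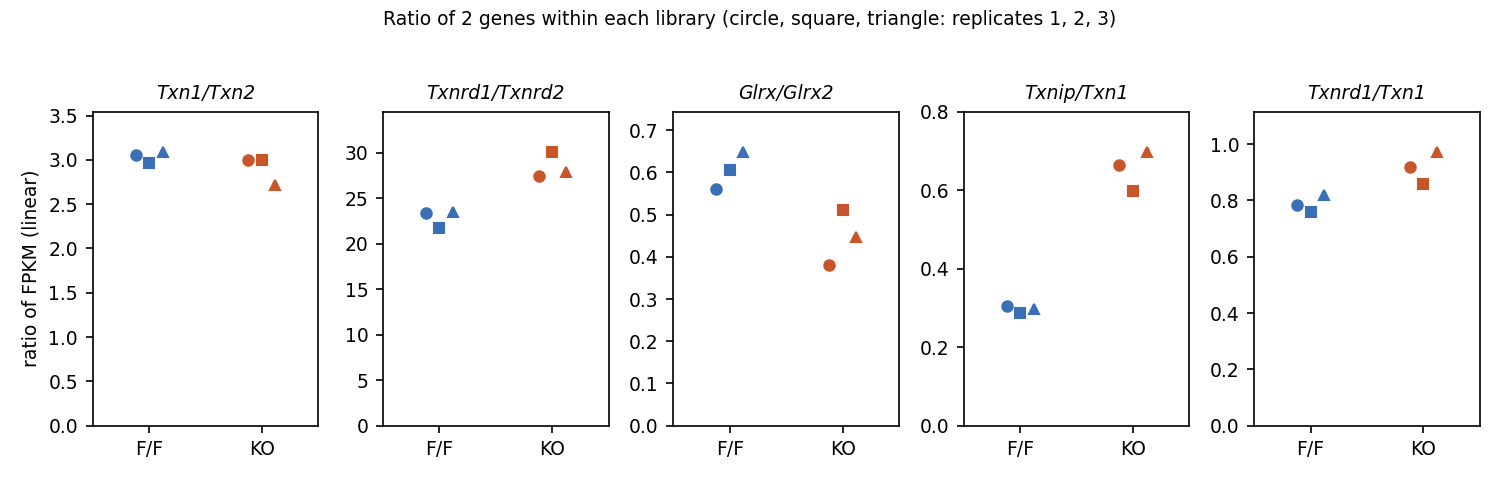
Each panel plots the linear ratio of the FPKM of 2 genes within a library (y axis from 0), by group, with markers for replicates 1 to 3. Txnip over Txn1 lies at 0.29 to 0.30 in F/F-labelled and 0.60 to 0.70 in KO-labelled libraries, and Txn1 over Txn2 is the ratio whose groups overlap.

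Txnip belongs to the alpha-arrestins, and its transcription is known to follow glucose through the factors MondoA (Mlxip) and ChREBP (Mlxipl) with their partner MLX. Of 14 genes of this control and family, 11 could be tested, and 5 were higher and 2 lower, with a median log2 fold change of 0.13. Over all tested genes, 21.3% were higher and 17.9% lower, and each list count below is to be read beside these shares. The alpha-arrestin genes Arrdc3 and Arrdc4 rose. Arrdc3 went from 58.9, 54.9 and 55.4 FPKM to 91.5, 80.7 and 95.2 FPKM (log2 fold change 0.65). Arrdc4, like Txnip a known MondoA target, went from 9.56, 9.54 and 10.0 FPKM to 15.0, 14.4 and 13.9 FPKM (0.53), and Arrdc1 rose by 0.30. The glucose transporter gene Slc2a1 fell from 279 ± 12.4 to 218 ± 17.2 FPKM (-0.36). Mlxip rose by 0.20, while Mlx fell by 0.18. Mlxipl was below the filter, at 0.54 to 0.97 FPKM in F/F-labelled and 0.17 to 0.28 FPKM in KO-labelled libraries. The RefSeq windows of Arrdc1, Arrdc3 and Arrdc4 held no match to the paired letters searched above, and other spellings were not searched. Windows of 15 distinct genes held the paired letters, and 9 of these genes could be tested. Of them, 4 were higher, Txnip included, 2 were lower and 3 were not called. A link between the letters and the rise of Txnip was not tested.

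The genes most like Txnip over the 6 libraries, by Pearson correlation of log2(FPKM + 1), were Apela, Arl4c and Epcam, each with r = 0.999. Apela, which encodes a small secreted peptide, went from 3.35 to 3.69 FPKM in F/F-labelled libraries to 9.45 to 11.0 FPKM in KO-labelled ones. Epcam, the epithelial adhesion molecule, went from 11.0 to 12.5 FPKM to 28.2 to 31.2 FPKM. Arl4c, a small GTPase gene, went from 22.8 to 24.1 FPKM to 30.4 to 31.9 FPKM. The likeness is a description: the correlation includes the difference between groups, and 1042 tested genes had r above 0.95 with Txnip.

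Srxn1, the sulfiredoxin gene (ENSMUSG00000032802.8, chromosome 2, 152105516 to 152111376), fell most of the 9. Its values were 175, 191 and 188 FPKM in F/F-labelled and 119, 114 and 119 FPKM in KO-labelled libraries, well apart. The means of 185 ± 8.86 and 117 ± 2.65 FPKM (SD, n = 3) differed by -0.65 on the log2 scale (SE 0.045, limma adjusted p = 1.7e-05). Of the tested genes, 4.30% had a larger absolute change.

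Srxn1 serves the peroxiredoxins, which in turn draw on thioredoxin, as do methionine sulfoxide reductases and ribonucleotide reductase. With the gene of a thioredoxin partner, the kinase gene Map3k5 (lower, -0.24), counted in, 6 of 13 genes were lower and 4 higher. Their median was -0.06. Prdx1, the most abundant cytosolic peroxiredoxin of the list, fell from 448, 406 and 439 FPKM to 336, 323 and 300.0 FPKM (-0.43). The methionine sulfoxide reductase genes went opposite ways: Msra fell from 13.0, 12.9 and 13.8 FPKM to 7.90, 8.36 and 8.07 FPKM (-0.64), while Msrb3 rose from 16.3, 15.8 and 16.4 FPKM to 25.3, 26.1 and 25.1 FPKM (0.63). Rrm1, the large subunit of ribonucleotide reductase, rose by 0.48.

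Glrx encodes the cytosolic glutaredoxin and was the least abundant of the 9 (ENSMUSG00000021591.8, chromosome 13, 75839868 to 75850154), with 76 to 198 reads a library. It stood at 4.97, 4.76 and 5.80 FPKM in F/F-labelled and 3.09, 3.79 and 3.29 FPKM in KO-labelled libraries, with no overlap. The log2 difference by limma was -0.49 (SE 0.087, limma adjusted p = 0.0026). Its level was 34.5% lower by the ratio of means, a size near that of Srxn1 at 36.6% lower, but on a low level with few reads.

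Glrx2, the gene of a mainly mitochondrial glutaredoxin (chromosome 1, 143716338 to 143749676), had 8.87, 7.84 and 8.97 FPKM in F/F-labelled and 8.14, 7.40 and 7.35 FPKM in KO-labelled libraries. The groups overlapped through F/F-labelled replicate 2. The log2 fold change was -0.15, with a 95% interval from -0.30 to 0.0025 (limma adjusted p = 0.11). Without F/F-labelled replicate 2 it was -0.20 and called (limma adjusted p = 0.041). The authors' deposited table gives Glrx2 a log2 fold change of -0.20 and an FDR of 0.024. Glrx over Glrx2 was 0.56, 0.61 and 0.65 against 0.38, 0.51 and 0.45, a log2 difference of -0.45 without overlap (exact permutation p = 0.1, adjusted p = 0.125 over 5 pairs).

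Relatives with a thioredoxin fold mostly were not called. Of 18 such genes, 3 were higher and 1 lower, with a median of 0.08. Nxn, the nucleoredoxin gene, rose from 6.93, 6.94 and 7.17 FPKM to 9.14, 11.1 and 9.48 FPKM (0.44). The endoplasmic reticulum membrane members Tmx3 (0.18) and Tmx4 (0.18) rose and Tmx2 fell (-0.20). Txnrd3, the third reductase gene, stood at 6.78 ± 0.50 and 6.68 ± 0.74 FPKM, and Glrx5, the iron-sulphur cluster glutaredoxin gene, at 50.7 ± 3.93 and 47.6 ± 3.54 FPKM, and neither was called.

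Nqo1 (ENSMUSG00000003849.8, chromosome 8, 107388225 to 107403206) rose. Its values were 25.1, 23.5 and 24.2 FPKM in F/F-labelled and 34.5, 29.2 and 30.5 FPKM in KO-labelled libraries. No values overlapped, and KO-labelled replicate 1 was the highest. The means of 24.3 ± 0.79 and 31.4 ± 2.78 FPKM (SD, n = 3) differed by 0.36 on the log2 scale (SE 0.061, limma adjusted p = 0.0022). Without KO-labelled replicate 1 the log2 fold change was 0.29 and still called.

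**Figure D3:**
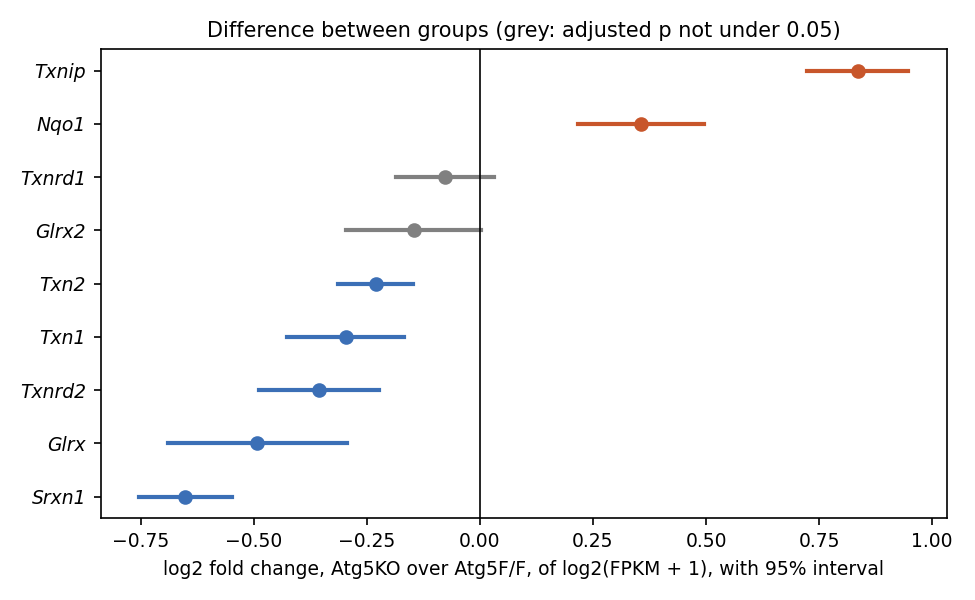
The points are log2 fold changes of KO-labelled over F/F-labelled libraries on log2(FPKM + 1), with 95% intervals from limma (x axis), for each of the 9 genes (y axis). Txnip at 0.83 and Nqo1 at 0.36 lie right of 0, 5 genes lie left of it, and the intervals of Txnrd1 and Glrx2, in grey, include 0.

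The 3 best known NRF2 targets among the 9 went different ways: Nqo1 rose, Srxn1 fell and Txnrd1 was not called. Of 20 other NRF2 target genes, 13 were lower and 3 higher, with a median of -0.38. The glutathione S-transferase genes Gsta2 (97.5 ± 7.98 to 37.9 ± 1.11 FPKM, -1.34), Gsta1 (-1.24) and Gsta4 (216 ± 4.01 to 102 ± 0.39 FPKM, -1.08) fell. Gsta1 and Gsta2 are closely related, so reads shared between them leave each value uncertain. The haem oxygenase gene Hmox1 fell from 400, 401 and 430 FPKM to 259, 241 and 247 FPKM (-0.72). The 3 that rose were the glutamate-cysteine ligase genes Gclc (271 ± 10.6 to 429 ± 16.6 FPKM, 0.66) and Gclm (0.13) and the carbonyl reductase gene Cbr3 (0.33). Nqo1 was thus on the side of the 3 and Srxn1 on that of the 13.

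Among genes that set NRF2 activity, Nfe2l2, which encodes NRF2, stood at 106 ± 4.83 and 104 ± 4.41 FPKM, and its inhibitor gene Keap1 at 18.4 ± 0.53 and 18.1 ± 0.91 FPKM, and neither was called. Of 7 genes of this control, 3 were higher and 0 lower. These were the small MAF gene Maff, from 31.7 ± 0.77 to 42.2 ± 1.56 FPKM (0.40), Bach1, a repressor at NRF2 sites (0.23), and Mafk (0.17). Other quinone and carbonyl reducing genes were mixed, with 2 of 9 higher and 3 lower. Por, the cytochrome P450 reductase gene, fell by 0.70 and Cryz, a quinone reductase gene, by 0.32, while Ptgr1 rose by 0.39. Nqo2, the nearest relative of Nqo1, was not called, at 5.99 ± 0.42 and 6.67 ± 0.46 FPKM.

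Both the reductases and NQO1 depend on NADPH or NADH. Of 16 genes tied to NADPH supply, 10 were lower and 1 higher, with a median of -0.25. Some of the 16 do not make NADPH themselves. Among these, Tkt (-0.41), Taldo1 (-0.25) and Nadk (-0.28) were lower, and Pgls and Nadk2 were not called. Aldh1l1, a folate pathway dehydrogenase gene, fell from 3.46, 4.93 and 3.99 FPKM to 1.64, 1.94 and 2.14 FPKM (-0.81). Idh1 and Idh2, the cytosolic and mitochondrial isocitrate dehydrogenase genes, fell by 0.70 and 0.48, and the malic enzyme gene Me3 by 0.44. The oxidative pentose phosphate genes G6pdx (51.2 ± 1.17 and 49.5 ± 0.93 FPKM) and Pgd (198 ± 5.99 and 191 ± 1.69 FPKM) were not called.

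Txnrd1 and Txnrd2 need the machinery that inserts selenocysteine at the TGA codon shown above. Of 8 genes of that synthesis, 4 were lower and 1 higher, with a median of -0.16. Sephs2, which makes selenophosphate, fell from 48.7, 47.2 and 49.1 FPKM to 35.7, 35.8 and 34.9 FPKM (-0.44). Scly, the selenocysteine lyase gene, fell by 0.39, and Pstk, the kinase for the transfer RNA, by 0.19. Secisbp2l, a relative of the binding protein for the insertion element, rose from 24.9 ± 0.83 to 36.5 ± 1.08 FPKM (0.54). Of 15 tested genes of other selenoproteins, 5 were lower and 2 higher, with a median of -0.01, against 17.9% lower and 21.3% higher over all tested genes. The 5 include Sephs2 again, and Msrb1, which was also counted among the genes served by thioredoxin. The largest decrease was that of Gpx3, the plasma glutathione peroxidase gene made in the proximal tubule, from 1174 ± 106 to 745 ± 30.5 FPKM (-0.65). The selenoprotein genes Sepp1 (0.26) and Sepn1 (0.24) rose.

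**Figure D4:**
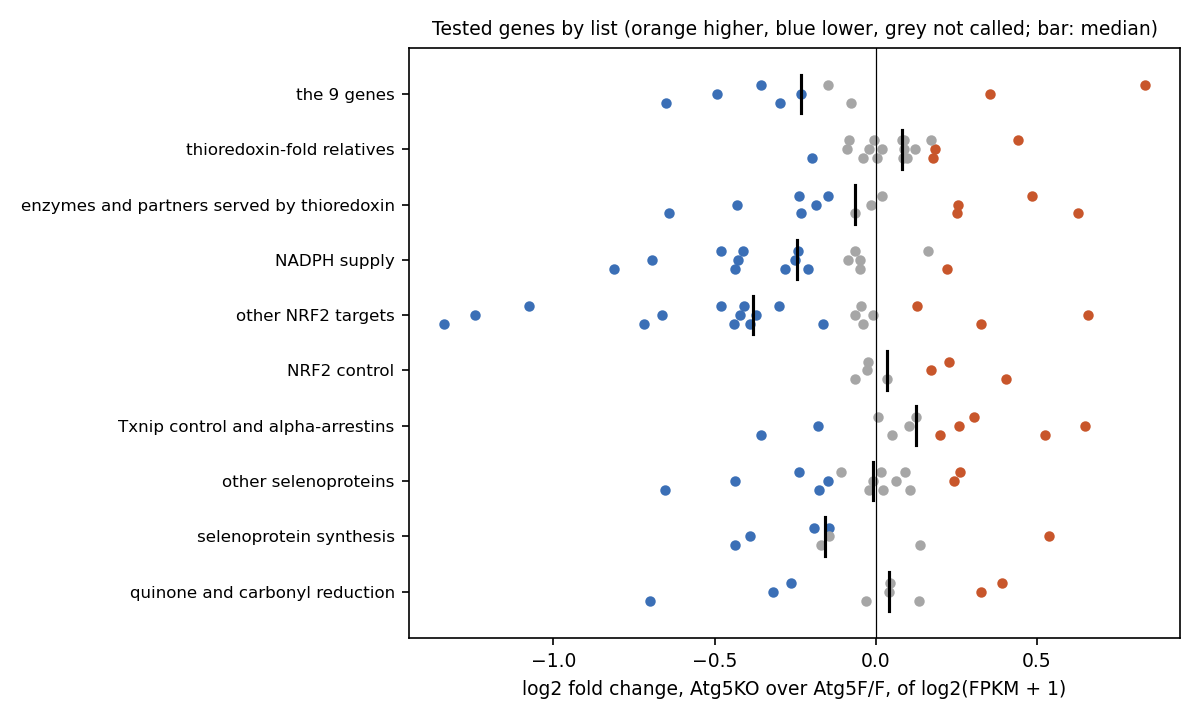
Each point is the log2 fold change of a tested gene (x axis, KO-labelled over F/F-labelled libraries on log2(FPKM + 1)), by gene list (y axis), coloured by call, with a bar at the list's median. The other NRF2 targets have the lowest median of the pathway lists, -0.38, with Gsta2 at -1.34 and Gclc at 0.66 as the ends of their range.

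The authors' deposited table, which holds edgeR results per its file name, gives all 9 genes an FDR under 0.05. By the same FDR, 22.0% of all rows of the authors' deposited table are called, and 41.2% of the genes tested here. The authors' deposited table gives the same sign as the limma fit for each of the 9 genes, from -0.69 for Srxn1 to 0.81 for Txnip.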

How the data were processed

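Polyadenylated RNA was sequenced from stranded libraries, per the labels' protocols. The submitters' processing notes name HISAT2 2.1.0, featureCounts 1.4.6, Trimmomatic 0.35, bcl2fastq and edgeR, and the build GRCm38 (mm10). Annotation, strand setting and filters: not given in the sources used here. An FPKM per gene and library was deposited, beside the authors' log2 fold change, p-value, FDR and a rank of each row, which was handled as a score and not used. The p-values come from a deposited column labelled as adjusted that held unadjusted values, since adjusting it gave the FDR within 4.7e-07.

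Groups were compared with limma 3.58.1 in R 4.3.3 (trended eBayes, no block) after adding 1 FPKM and taking log2, over 11559 genes that reached 1 FPKM in 3 or more libraries. Calls were at adjusted p under 0.05 over all tested genes. Ratios between members used exact permutation tests over libraries, adjusted over 5 pairs. Whole reads were recovered from the FPKM steps for all 18296 genes above 0 (tolerance 2.0e-04 reads or 1.5e-09 relative). Reads gave the depth and an alternative fit with voom. Members and gene lists were chosen with earlier results of these data known. All 9 members are named, and from each list up to 4 called genes with the largest change. Mlxip, Mlx, Mlxipl, Txnrd3, Glrx5, Nqo2, Nfe2l2, Keap1, G6pdx, Pgd, Gclc, Gclm and Cbr3 were named after their values were seen. So were Map3k5, Tkt, Taldo1, Nadk, Pgls, Nadk2 and the cell type markers. List names were matched by symbol, 16 of 18 for the selenoproteins. Sephs2, Msrb1, Txnrd3, Cbr3 and Mafg are shared between lists and were counted in each. Both the gene test and the read recovery were also run on simulated data with the same dispersion for all genes, the recovery on a sample of genes. The outcome is not given here, so these runs lend no weight to the results. Within groups, the chi-square of reads per degree of freedom was 3.3 to 6.8, and no library was treated as a duplicate of another. Tables were read in Python 3.11.15 with numpy 2.4.6 and pandas 2.3.3.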

Additional observations from a re-analysis of the deposited data

How the results depend on the processing

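The counts among the 9 genes were stable over 16 alternatives. Their number higher was 2 in each, and their number lower was 5 in 14 of them, 4 with a filter of 5 FPKM, which left Glrx out, and 6 without F/F-labelled replicate 2, which added Glrx2. All 7 called genes kept their direction and call wherever they were tested, and the highest limma adjusted p was 0.016, for Txn1. Txnrd1 changed sign with quantile normalization (0.015) and was called in none (lowest limma adjusted p = 0.064). The log2 fold change of Txn1 ran from -0.33 to -0.20, that of Txnip from 0.79 to 0.89 and that of Srxn1 from -0.69 to -0.58. Leaving out each library in turn gave 3212 to 4053 called genes over all, against 4530. With the replicate number as a block, 4668 genes were called, with the same 2 higher and 5 lower among the 9, so it changed no call of theirs. Same-numbered libraries did not all deviate together (r = 0.16, 0.075 and -0.023), and the numbers mark no shared animal in the labels. With the length trend of each library removed, Txn1 stood at -0.24 and Txn2 at -0.18, both called. With 3 libraries a group and 76 to 198 reads a library, Glrx has the lowest depth of the 9.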
